A study of Homo sapiens with 15 samples.

Results

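The genes described here are 10 that carry angiotensin II (AngII) and adrenocorticotropic hormone (ACTH) signals into adrenocortical cells: AGTR1, MC2R, MRAP, GNAS, PRKACA, PRKACB, PRKAR1A, PRKAR2B, PDE8B and VSNL1. They were listed by name for their place in these pathways, with earlier results of these data known, and are 10 of the 21493 genes in the files. All were measured by RNA-Seq in 15 libraries of NCI-H295R, a human adrenocortical carcinoma cell line. Of these, 3 came from cells transfected with a pcDNA3.T7 plasmid carrying delta-NFAT3, a constitutively active NFATC4 that lacks the N-terminal domain (ΔNFATC4), and 4 from cells given the empty pcDNA3.T7 plasmid (mock). RNA of both was taken 3 days after transfection, and both were of WT genotype. Another 4 libraries are labelled NFATC4-KO (numbers 1, 2, 3 and 5), from clones grown out of single cells after CRISPR with a pair of guides against NFATC4, and 4 are labelled control (numbers 1 to 4), from WT cells that had received empty plasmids in parallel. No source says which clone gave which library, or that libraries under a label came from separate cultures, so a P value here speaks only for the spread among libraries, which may be technical.

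AngII acts through AGTR1, a Gq-coupled receptor that raises calcium and, with it, calcineurin activity, which dephosphorylates NFATC4. ACTH acts through MC2R, which reaches the cell surface only with its accessory protein MRAP and couples to Gs. The Gs α subunit, encoded by GNAS, activates adenylyl cyclase, and cAMP then frees the catalytic subunits of protein kinase A (PRKACA, PRKACB) from the regulatory subunits (PRKAR1A, PRKAR2B) until phosphodiesterases such as PDE8B break it down. VSNL1, visinin-like 1, is a calcium sensor of the neuronal calcium sensor family that is enriched in the human zona glomerulosa, the layer that makes aldosterone.

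The sequences just upstream of MC2R, VSNL1 and PRKAR1A are shown because MC2R and VSNL1 were called between ΔNFATC4 and mock cells, because PRKAR1A separated libraries by number, and because all of them were called between NFATC4-KO and control libraries in the fit with the number set as a term. Each is the 250 bases before a RefSeq transcription start in GRCh38.p14, 5′ to 3′ on the gene's own strand. Capitals mark TGACG (the core of a cAMP response element), TGACGTCA (the full element) and GGAAA (the core letters bound by NFAT proteins), read on both strands, so that TTTCC is GGAAA on the other strand. The 2 elements overlap by construction, since TGACGTCA holds TGACG.
MC2R, chr18:13915537-13915786, minus strand: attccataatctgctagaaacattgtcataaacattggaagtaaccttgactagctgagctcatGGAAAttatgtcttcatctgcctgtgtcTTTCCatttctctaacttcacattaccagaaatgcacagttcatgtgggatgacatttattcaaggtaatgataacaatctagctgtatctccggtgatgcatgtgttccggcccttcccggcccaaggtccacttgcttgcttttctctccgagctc
VSNL1, chr2:17540446-17540695, plus strand: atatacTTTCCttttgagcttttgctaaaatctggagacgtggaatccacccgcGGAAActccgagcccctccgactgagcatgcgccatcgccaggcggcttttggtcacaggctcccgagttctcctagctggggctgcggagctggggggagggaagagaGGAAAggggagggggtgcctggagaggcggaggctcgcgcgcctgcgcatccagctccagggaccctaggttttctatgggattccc
PRKAR1A, chr17:68512180-68512429, plus strand: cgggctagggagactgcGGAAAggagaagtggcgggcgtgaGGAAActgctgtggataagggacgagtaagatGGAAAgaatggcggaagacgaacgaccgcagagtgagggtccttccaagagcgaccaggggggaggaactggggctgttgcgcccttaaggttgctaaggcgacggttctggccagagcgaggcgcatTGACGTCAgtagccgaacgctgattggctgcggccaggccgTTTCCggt

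GGAAA stands 186 and 158 bases before the start of MC2R, and 244, 196 and 87 bases before that of VSNL1. The same letters were also found upstream of PRKAR1A, PRKACB, PRKAR2B and PDE8B. These letters occur in 55.6% of 35116 RefSeq windows of the same length, so their presence does not set these genes apart. The full element TGACGTCA, which 1.65% of the windows hold, begins 49 bases before the start of PRKAR1A. TGACG, present in 21.2% of windows, was also found upstream of PRKACA and of a GNAS start that lies 2241 bases from the main one. Neither TGACG nor the exact letters AAGGTCA, a form of the sequence bound by the steroidogenic factor NR5A1, was found upstream of MC2R or VSNL1. Other forms of that sequence were not searched, so whether these windows lack NR5A1 letters was not tested. Windows were matched for 8 of the 10 genes. A match is a description of letters and not a site of binding.

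By label, NFATC4 itself separated the groups in the transfected cells only. It averaged 343 ± 14.6 CPM (counts relative to 1000000 counts of the library, scaled by TMM) in ΔNFATC4 cells (SD, n = 3) and 94.6 ± 7.75 CPM in mock cells (SD, n = 4). NFATC4-KO libraries held 92.2, 84.8, 58.2 and 53.8 CPM, against 115, 110, 45.0 and 54.1 CPM in control libraries. Over all numbers, NFATC4 RNA did not separate the labels (log2 fold change -0.16, adjusted p = 0.968 in edgeR). An edited gene can keep its RNA, so counts per gene are no check of the knockout, and the immunoblots of NFATC4 protein that the study made were not analysed here. The names NFATC4-KO and control are therefore those of the labels, and whether a difference between them follows from loss of NFATC4 was not tested. Under both labels, libraries numbered 1 and 2 instead stood apart from those numbered 3 to 5: CYP11B2, the aldosterone synthase gene, had 2.31 to 3.25 CPM in the lower numbers and 0 to 0.138 CPM, which is 0 to 3 counts, in the higher. For this reason the difference between the NFATC4-KO and control labels is also given within the number sets for each of the genes described here. Within numbers 1 and 2, NFATC4 RNA was lower in NFATC4-KO than in control libraries without overlap (log2 difference -0.34). Within numbers 3 to 5 the labels overlapped in NFATC4 RNA (0.18). CYP11B2 had 38.2 ± 2.72 CPM in ΔNFATC4 cells and 2.33 ± 0.53 CPM in mock cells (SD, n = 3 and 4). Part of its reads cannot be told from those of its near-identical neighbor CYP11B1. Libraries held 18777737 to 28164717 counts. All 12 adrenocortical markers examined averaged over 1 CPM in every group and summed to 4661 to 6681 CPM per library, while 13 markers of leukocytes, endothelium, fibroblasts and medulla summed to 6.32 to 15.1 CPM, of which COL1A1, a fibroblast gene, gave the most. SCARB1 gave most of the adrenocortical sum, at group means of 3110 to 3599 CPM.

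The 10 genes spanned a wide range of levels. Per kb of the main (MANE) transcript and averaged over the 15 libraries, GNAS was highest at 504 CPM per kb. The regulatory and catalytic subunits PRKAR1A, PRKACA and PRKAR2B followed at 94.3, 77.2 and 59.3 CPM per kb, and AGTR1 and VSNL1 at 36.2 and 21.8 CPM per kb. PRKACB had 14.5 CPM per kb, against 77.2 CPM per kb for the other catalytic subunit. On this scale MRAP (8.35 CPM per kb) stood above the receptor it serves, MC2R (2.04 CPM per kb), and PDE8B was lowest at 0.188 CPM per kb, with 7 to 33 counts per library. Its fold changes therefore carry the widest errors of the 10 genes.

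**Figure D1:**
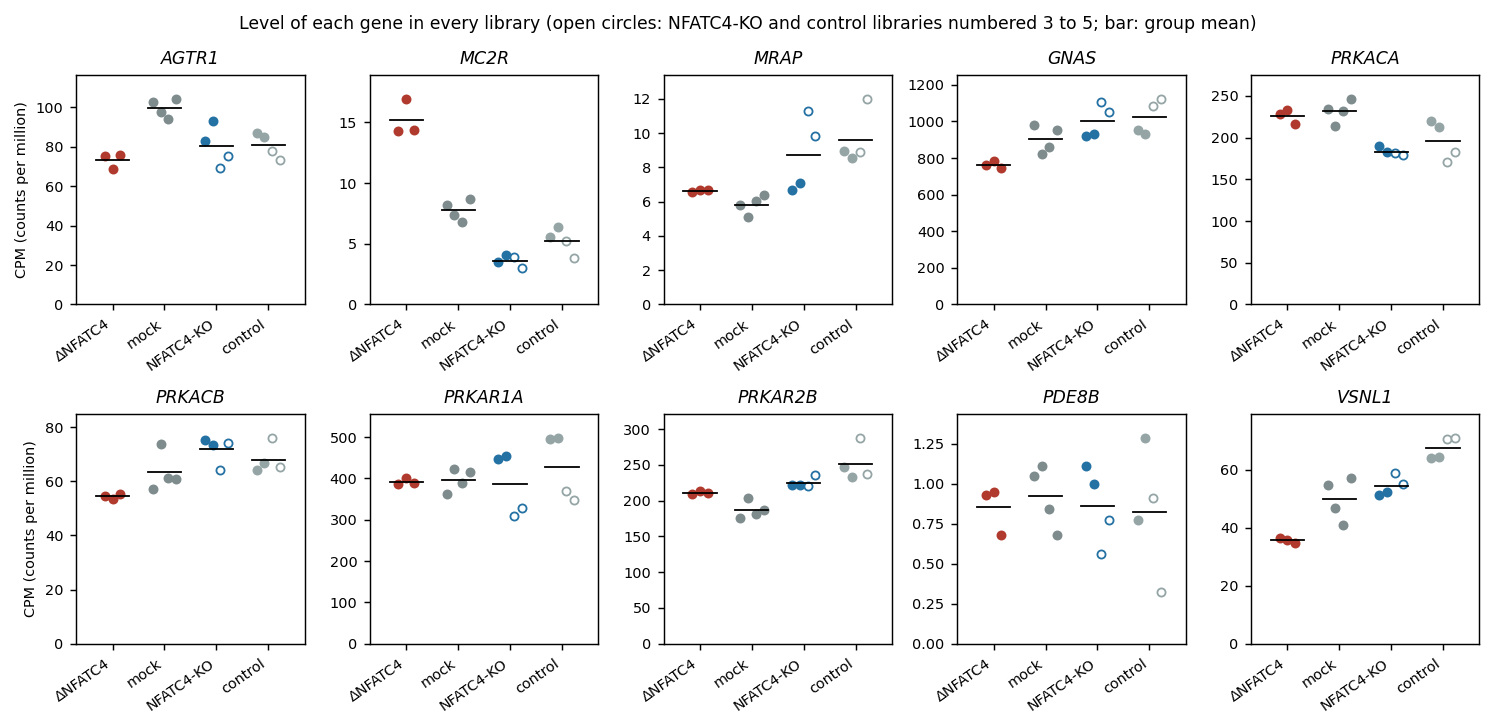
Level of each gene in every library, in CPM from 0 on the y axis, for ΔNFATC4 (3 libraries), mock (4), NFATC4-KO (4) and control (4); each circle is a library, open circles are NFATC4-KO and control libraries numbered 3 to 5, and bars are group means. MC2R is highest in ΔNFATC4 cells (14.3 to 16.9 CPM) and VSNL1 lowest there (34.8 to 36.5 CPM), while PRKAR1A splits by open and filled circles.

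The comparison of ΔNFATC4 with mock cells asks which of these genes respond to active NFATC4. The ACTH receptor MC2R rose about 2-fold, and VSNL1, AGTR1 and GNAS fell to 71.9%, 74.0% and 84.8% of their mock levels, so the receptors for ACTH and AngII moved in opposite directions. MRAP, the protein kinase A subunits and PDE8B did not pass the test. In all, 4 of 10 genes were called (1 higher, 3 lower) at an adjusted p under 0.05 in edgeR, against a background of 13.8% of the 14094 genes tested (7.69% higher and 6.1% lower). In 7 of 10 genes the libraries of the groups did not overlap, against 24.4% of all genes.

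MC2R (ENSG00000185231, chr18:13882044-13915707, minus strand in GRCh38) had 14.3, 16.9 and 14.4 CPM in ΔNFATC4 cells, against 8.19, 7.33, 6.80 and 8.65 CPM in mock cells. Every ΔNFATC4 library lay above every mock library. The log2 fold change was 0.97 ± 0.10 (SE), a 1.96-fold increase, with an adjusted p of 1.77e-06 in edgeR. By p, MC2R ranked 77 of 14094 genes. The level rested on 274 to 393 counts per ΔNFATC4 library and 145 to 241 per mock library.

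AGTR1, the type 1 AngII receptor (ENSG00000144891, chr3:148697784-148743008, plus strand), had 75.5, 68.9 and 76.0 CPM in ΔNFATC4 cells, against 103, 97.6, 94.1 and 104 CPM in mock cells. The highest ΔNFATC4 library was below the lowest mock library. The log2 fold change was -0.43 ± 0.06 (SE; adjusted p = 8.65e-05 in edgeR), which ranked it 239 of 14094 genes by p.

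MRAP, which escorts MC2R to the cell surface (ENSG00000170262, chr21:32291813-32314784, plus strand), had 6.55, 6.67 and 6.65 CPM in ΔNFATC4 cells and 5.78, 5.10, 6.05 and 6.39 CPM in mock cells. The groups did not overlap, but the difference was small: its log2 fold change of 0.19 ± 0.12 did not pass (adjusted p = 0.336 in edgeR), with a 95% interval of -0.04 to 0.42 by normal approximation. Its counts are uncertain, since 841 bases of its exons lie opposite exons of URB1, a ribosome assembly gene at 78.2 CPM in ΔNFATC4 cells and 69.6 CPM in mock cells. URB1 had a log2 fold change of 0.17 (adjusted p = 0.174 in edgeR); its part in the MRAP values was not tested.

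GNAS, the Gs α subunit gene (ENSG00000087460, chr20:58839718-58911192, plus strand), had 763, 782 and 745 CPM in ΔNFATC4 cells, against 983, 820, 862 and 952 CPM in mock cells. The groups did not overlap, and the log2 fold change was -0.24 ± 0.06 (SE; adjusted p = 0.0146 in edgeR). The call was lost without ΔNFATC4 library 1, 2 or 3 (adjusted p of 0.0642, 0.0574 and 0.0878), while the log2 fold change stayed between -0.28 and -0.20 under every library left out. The GNAS locus gives several imprinted transcripts from separate starts, which counts per gene add together.

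Of the protein kinase A subunits none was called, and those that leaned did so in different directions. The catalytic subunit PRKACB (chr1:84078062-84238498, plus strand) had 54.6, 53.5 and 55.4 CPM in ΔNFATC4 cells, against 57.3, 74.0, 61.2 and 60.9 CPM in mock cells, with a log2 fold change of -0.21 ± 0.08 (SE; adjusted p = 0.0843 in edgeR). The regulatory subunit PRKAR2B (chr7:107044705-107161811, plus strand) had 209, 214 and 210 CPM in ΔNFATC4 cells and 176, 204, 181 and 187 CPM in mock cells, with a log2 fold change of 0.18 ± 0.06 (SE; adjusted p = 0.0513 in edgeR). In neither gene did the groups overlap. The missed threshold depended on single libraries: PRKACB passed without mock library 1 (adjusted p = 0.0107), and PRKAR2B without mock library 1 (0.0480) or 2 (0.00879).

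The most abundant subunits of each kind showed little difference. PRKACA, the main catalytic subunit (chr19:14091688-14118084, minus strand), averaged 226 ± 8.59 CPM in ΔNFATC4 cells and 231 ± 13.2 CPM in mock cells (SD, n = 3 and 4), and the 95% interval of its log2 fold change was -0.14 to 0.09. PRKAR1A, the regulatory subunit whose loss causes primary pigmented nodular adrenocortical disease (chr17:68511780-68551319, plus strand), averaged 392 ± 7.51 CPM in ΔNFATC4 cells and 397 ± 27.5 CPM in mock cells (SD, n = 3 and 4), with an interval of -0.13 to 0.11. For these genes the intervals, by normal approximation, hold only small differences, but they speak only for the spread among these libraries. For PDE8B, a cAMP phosphodiesterase of adrenal cells (chr5:77210449-77428256, plus strand), with 0.930, 0.946 and 0.681 CPM in ΔNFATC4 cells and 1.05, 1.11, 0.844 and 0.682 CPM in mock cells, the interval was -0.61 to 0.45. Its counts are also uncertain because 2889 bases of its exons belong as well to a gene model listed as ENSG00000284762 on the same strand.

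VSNL1 (ENSG00000163032, chr2:17539126-17657018, plus strand) had 36.5, 35.8 and 34.8 CPM in ΔNFATC4 cells, against 54.6, 46.6, 41.0 and 57.3 CPM in mock cells. The ΔNFATC4 libraries were close together and all below the mock libraries, which were spread. The log2 fold change was -0.48 ± 0.09 (SE; adjusted p = 0.00165 in edgeR). VSNL1 was thus lower in the cells in which CYP11B2 was highest. For all genes above whose groups did not overlap, the exact two-sided permutation test gave p = 0.0571, which is the smallest that 3 against 4 libraries allow. In these bulk libraries, less RNA per cell and fewer cells carrying the RNA cannot be told apart.

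**Figure D2:**
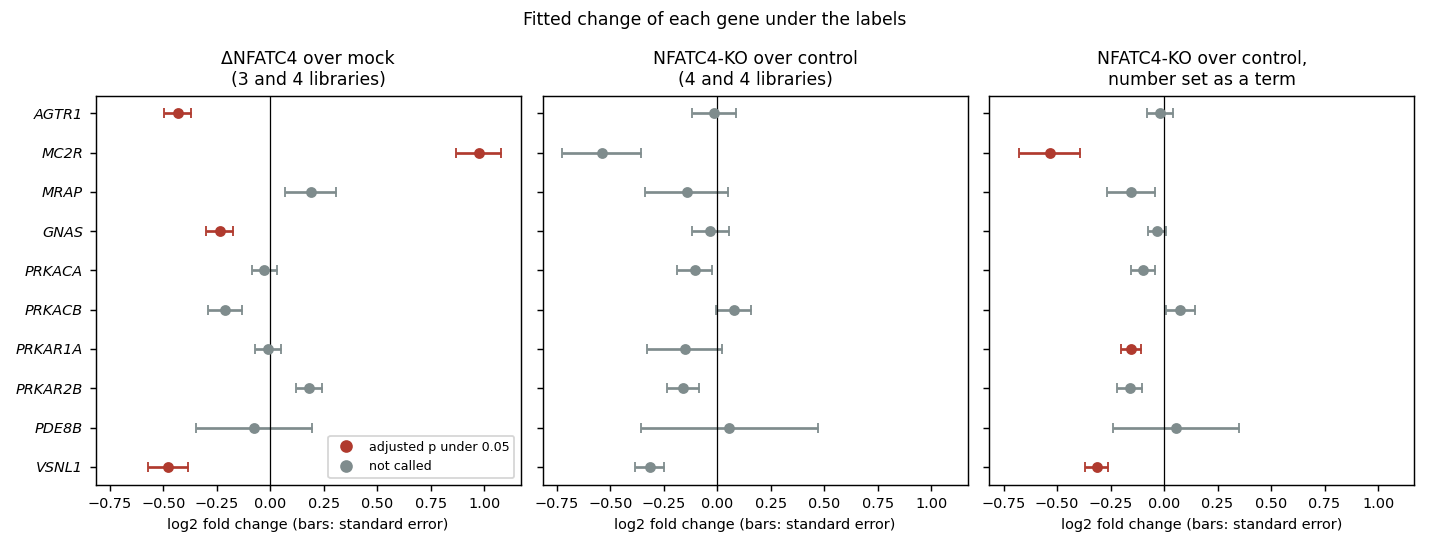
Log2 fold change of each gene (points, with standard errors as bars) for ΔNFATC4 over mock, for NFATC4-KO over control, and for NFATC4-KO over control with the number set as a term in the fit; red marks an adjusted p under 0.05 in edgeR. MC2R lies at 0.97 in the first panel and at -0.54 and -0.53 in the others, and VSNL1 lies below 0 in all panels (-0.48, -0.32 and -0.32).

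The comparison of NFATC4-KO with control libraries was made to ask which genes depend on NFATC4. VSNL1 was at most 58.8 CPM under the NFATC4-KO label and at least 64.1 CPM under the control label, and MC2R averaged 3.60 ± 0.46 CPM in NFATC4-KO and 5.23 ± 1.05 CPM in control libraries (SD, n = 4 each). Neither passed by label alone, and both did, with PRKAR1A, once the number set was a term in the fit. The number sets were found in these data, so adjusted p values from that fit hold only given the sets and may be too small. By label, edgeR called 0 of the 10 genes and 0 of the 13868 genes tested (0%), with 1257 genes at an unadjusted p under 0.05. DESeq2 called 155 genes, among them VSNL1, and edgeR with the library number as a block, over numbers 1 to 3, called 139 genes and 0 of the 10. With the number-set term, edgeR called 1446 genes (10.4%; 4.39% higher and 6.04% lower) and 3 of the 10, all lower. The libraries of the labels did not overlap in 1 of 10 genes, against 6.86% of all genes, and 3.14% were lower.

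VSNL1 had 51.2, 52.4, 58.8 and 55.0 CPM in libraries labelled NFATC4-KO, against 64.1, 64.4, 70.5 and 70.8 CPM in those labelled control. The log2 fold change was -0.32 ± 0.07 (SE; adjusted p = 0.245 in edgeR) by label, and the exact two-sided permutation p of 0.0286 is the smallest that 4 against 4 libraries allow. With the number set as a term it was -0.32 ± 0.05 (adjusted p = 0.00160 in edgeR), and the difference was -0.31 within numbers 1 and 2 and -0.31 within numbers 3 to 5. VSNL1 thus lay lower both in NFATC4-KO than in control libraries and in ΔNFATC4 than in mock cells.

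MC2R had 3.47, 4.04, 3.89 and 3.02 CPM in libraries labelled NFATC4-KO, against 5.52, 6.34, 5.23 and 3.81 CPM in those labelled control. The labels overlapped through control library 4. The log2 fold change was -0.54 ± 0.19 (SE; adjusted p = 0.422 in edgeR) by label and -0.53 ± 0.14 (adjusted p = 0.0220) with the number set as a term. Within numbers 1 and 2 the difference was -0.66, with no overlap, and within numbers 3 to 5 it was -0.39, with overlap. Levels were low, at 70 to 97 counts in NFATC4-KO and 83 to 163 counts in control libraries.

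PRKAR1A had 448, 455, 309 and 329 CPM in libraries labelled NFATC4-KO, against 496, 497, 369 and 348 CPM in those labelled control. By label the groups overlapped (log2 fold change -0.15 ± 0.17, adjusted p = 0.898 in edgeR). Within the number sets every NFATC4-KO library lay below every control library, by 0.14 on the log2 scale in numbers 1 and 2 and by 0.17 in numbers 3 to 5. With the set as a term the change was -0.16 ± 0.05 (adjusted p = 0.0362 in edgeR). PRKAR2B, the other regulatory subunit, had 222, 222, 220 and 235 CPM in NFATC4-KO libraries and 247, 233, 287 and 237 CPM in control libraries. It was likewise lower without overlap in both sets, with differences of -0.11 and -0.20, but did not pass with the set as a term (adjusted p = 0.0912 in edgeR). Of all genes, 11.2% were lower without overlap within both sets.

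For the remaining genes no change was called in any fit of the labels. AGTR1 averaged 80.2 ± 10.4 CPM in NFATC4-KO libraries and 80.9 ± 6.41 CPM in control libraries (SD, n = 4 each), and with the set as a term its log2 fold change was -0.02 ± 0.06 (SE). GNAS averaged 1003 ± 92.5 CPM in NFATC4-KO libraries and 1023 ± 93.5 CPM in control libraries (SD, n = 4 each), with -0.03 ± 0.04 (SE) in that fit. MRAP averaged 8.72 ± 2.20 CPM in NFATC4-KO libraries and 9.59 ± 1.60 CPM in control libraries (SD, n = 4 each). The catalytic subunit PRKACA averaged 183 ± 4.46 CPM in NFATC4-KO libraries and 196 ± 23.3 CPM in control libraries (SD, n = 4 each). PRKACB averaged 71.8 ± 5.17 CPM in NFATC4-KO libraries and 67.9 ± 5.36 CPM in control libraries (SD, n = 4 each). PDE8B, at 0.861 ± 0.24 CPM in NFATC4-KO libraries and 0.821 ± 0.40 CPM in control libraries (SD, n = 4 each), differed by less than its spread between libraries. Within numbers 1 and 2, PRKACA, PRKACB, MRAP and GNAS did not overlap between labels, with log2 differences of -0.22, 0.19, -0.35 and -0.03. Within numbers 3 to 5 they overlapped (0.03, -0.03, 0.02 and -0.03). AGTR1 (0.03 and -0.07) and PDE8B (0.04 and 0.12) overlapped in both sets. Each label had 2 libraries per set, and the share of all genes without overlap in numbers 1 and 2 alone was not counted. The edgeR interaction term, for a label difference that differs between the sets, passed for none of the 10 genes (lowest adjusted p = 0.165, for PRKACA). Over all genes, 43 of 13868 passed it.

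Ordered over the 4 groups, MC2R was highest in ΔNFATC4 cells, then mock, then control, then NFATC4-KO, and only control and NFATC4-KO overlapped between neighbors. VSNL1 had its lowest level in ΔNFATC4 cells, with mock, NFATC4-KO and control above in that order, and only mock and NFATC4-KO overlapped. AGTR1 was highest in mock cells, at 99.6 ± 4.63 CPM (SD, n = 4), above all other libraries, and control, NFATC4-KO and ΔNFATC4 overlapped in sequence. PRKACA and PRKAR1A overlapped between all neighbors in their order, and PRKAR2B and MRAP were lowest in mock cells, just below ΔNFATC4 cells, without overlap. GNAS and PRKACB were lowest in ΔNFATC4 cells, below mock cells without overlap. The transfected and the edited cells belong to separate experiments, so differences across them cannot be told apart from differences between the experiments.

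Libraries numbered 1 and 2 were set against those numbered 3 to 5 over both labels as a description, since the sets were found in these data. PRKAR1A had the largest difference for its error, at 474 ± 26.2 CPM in numbers 1 and 2 and 339 ± 25.5 CPM in numbers 3 to 5 (SD, n = 4 each), a log2 difference of 0.48 ± 0.04 (SE). AGTR1 was also higher in numbers 1 and 2, at 87.1 ± 4.43 CPM, than in numbers 3 to 5, at 74.0 ± 3.68 CPM, and GNAS lower, at 934 ± 14.5 CPM, than in numbers 3 to 5, at 1091 ± 30.5 CPM (SD, n = 4 each). In these 3 of 10 genes the sets did not overlap, against 37.6% of 14200 genes, so this was no more frequent than over all genes. None of the 10 differed by over 2-fold without overlap, against 8.03% of all genes.

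The 12 adrenocortical markers summed to 4766 to 6202 CPM in numbers 1 and 2 and to 4661 to 5216 CPM in numbers 3 to 5, and the 13 markers of other cells to 14.0 to 14.9 CPM in numbers 1 and 2 and to 6.32 to 10.6 CPM in numbers 3 to 5, with 5 of the 13 at 0 in each set. SCARB1 gave most of the adrenocortical sum, so that sum says little of the other adrenocortical markers. The part of all these markers in the differences between the sets was not tested.

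The other genes overlapped between the sets. MRAP, at 7.83 ± 1.11 CPM in numbers 1 and 2 and 10.5 ± 1.40 CPM in numbers 3 to 5 (SD, n = 4 each), had a log2 difference of -0.43 ± 0.11 (SE), and the overlap came from control library 3, at 8.87 CPM, just under control library 1, at 8.97 CPM. PDE8B had the largest difference, 0.68 ± 0.30 (SE), from 19 to 33 counts in numbers 1 and 2 and 7 to 21 counts in numbers 3 to 5. MC2R and VSNL1 differed by 0.27 ± 0.14 and -0.14 ± 0.05 between the sets. PRKACB had nearly the same mean in both, at 69.9 and 69.8 CPM.

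**Figure D3:**
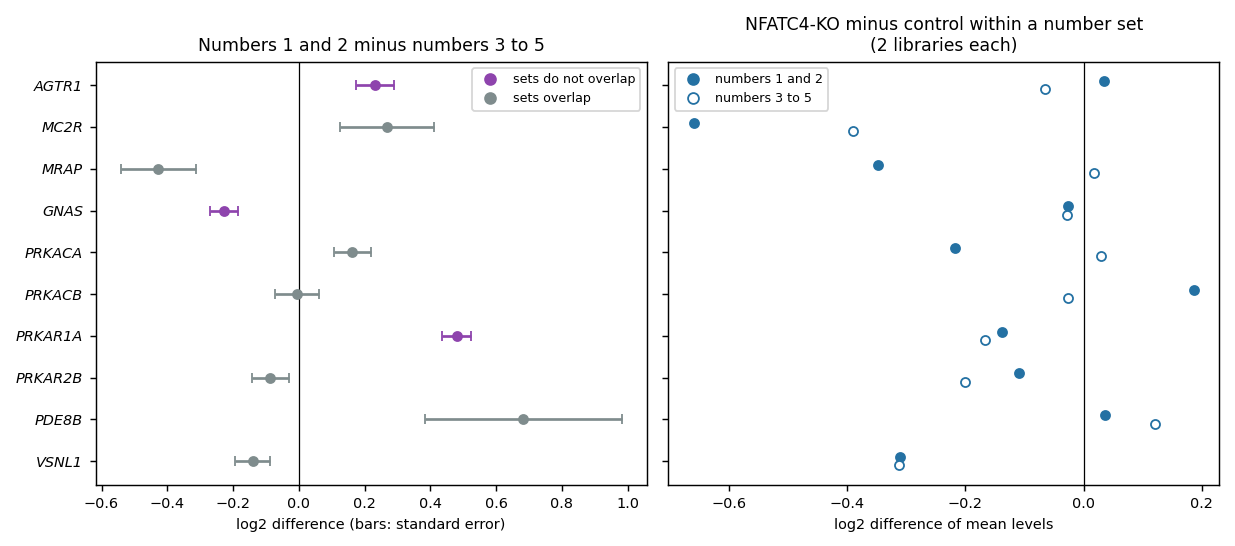
Left, log2 difference of each gene between libraries numbered 1 and 2 and those numbered 3 to 5 (4 each, both labels; bars are standard errors, purple marks sets without overlap). Right, log2 difference of NFATC4-KO minus control within numbers 1 and 2 (filled) and within numbers 3 to 5 (open), 2 libraries each. VSNL1 lies at -0.31 in both sets on the right, and PRKAR1A at 0.48 on the left.

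Ratios within a library do not depend on its scaling. They are ratios of RNA counts not corrected for transcript length, so their size does not compare numbers of transcripts or proteins. The ratio of MC2R to MRAP counts was 2.29 ± 0.21 in ΔNFATC4 cells and 1.33 ± 0.14 in mock cells (SD, n = 3 and 4), and 0.435 ± 0.13 in NFATC4-KO and 0.566 ± 0.18 in control libraries (SD, n = 4 each). The ratio of MC2R to AGTR1 counts, from the RNA of the ACTH and AngII receptors, stood at 0.208 ± 0.03 in ΔNFATC4 cells and 0.0776 ± 0.005 in mock cells (SD, n = 3 and 4), without overlap. In libraries labelled NFATC4-KO this ratio was 0.0453 ± 0.007, against 0.0642 ± 0.009 in control libraries (SD, n = 4 each), with overlap. The ratio of regulatory subunits, PRKAR1A to PRKAR2B, was 1.86 ± 0.01 in ΔNFATC4 cells and 2.13 ± 0.07 in mock cells (SD, n = 3 and 4), and by number it was 2.05 ± 0.06 in numbers 1 and 2 and 1.39 ± 0.08 in numbers 3 to 5 (SD, n = 4 each). Over the 8 tests of 4 ratios under the labels, exact two-sided permutation gave p = 0.0571 at the lowest, or 0.114 after Benjamini-Hochberg adjustment. The smallest p that 3 against 4 libraries allow is 0.0571. Even with every ratio at the smallest p its libraries allow, none could pass 0.05 after adjustment. These tests therefore cannot decide whether the ratios differ.

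**Figure D4:**
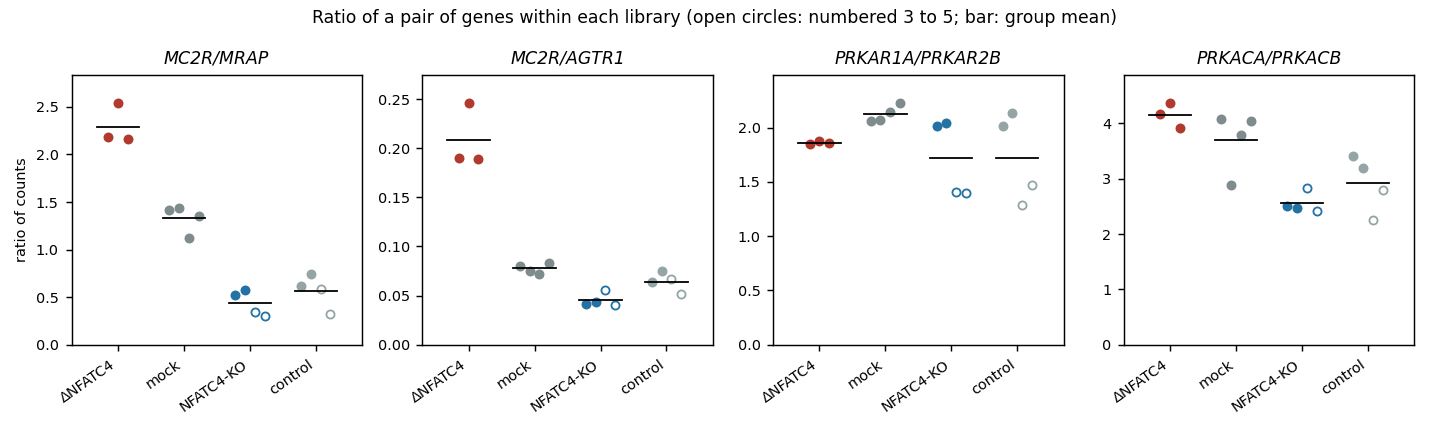
Ratio of counts of a pair of genes within each library (y axis from 0), for ΔNFATC4, mock, NFATC4-KO and control; each circle is a library, open circles are numbered 3 to 5 and bars are group means. The MC2R to AGTR1 ratio averages 0.208 in ΔNFATC4 cells and 0.0776 in mock cells, and the PRKAR1A to PRKAR2B ratio is lower in open than in filled circles under both labels.

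Other genes of the same pathways were called in both directions in ΔNFATC4 cells, and most were not called. Of 132 genes in the pathway lists, 103 were tested, 13 rose and 7 fell, against 7.69% higher and 6.1% lower over all genes, and their median log2 fold change was -0.04, against -0.0027 over all genes tested. Of 25 genes of the AngII pathway, 17 were tested, 2 rose and 2 fell. PRKCA, protein kinase C α, rose by 0.45 on the log2 scale, and ARRB2, a β-arrestin that turns receptors off, fell by 0.30. Of the 19 other G protein subunits, all tested, GNG11 and GNAI1 were among 3 that rose (0.51 and 0.36), and GNB5 and GNAO1 were the 2 that fell (-0.43 and -0.34).

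Of 12 adenylyl cyclases and associated proteins, which make cAMP, 10 were tested, 1 rose and 1 fell. ADCY7 rose to 2.13 ± 0.52 CPM in ΔNFATC4 cells, against 0.946 ± 0.20 CPM in mock cells (SD, n = 3 and 4; log2 fold change 1.18, adjusted p = 0.00151 in edgeR), and ADCY3 fell by 0.31 on the log2 scale. Exons of ADCY7 and ADCY3 lie opposite those of BRD7 and CENPO. Among 12 other cAMP phosphodiesterases tested, 3 rose and 0 fell. PDE10A rose to 22.4 ± 1.82 CPM in ΔNFATC4 cells, against 12.5 ± 1.85 CPM in mock cells (SD, n = 3 and 4; log2 fold change 0.85, adjusted p = 7.55e-06 in edgeR), and PDE8A and PDE2A rose by 0.22 and 0.19 on the log2 scale. PDE2A, which cGMP stimulates, was the most abundant of those that rose, at 447 ± 10.4 CPM in ΔNFATC4 cells and 393 ± 12.5 CPM in mock cells (SD, n = 3 and 4).

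Downstream, RAPGEF4, the cAMP-activated exchange factor Epac2, rose to 15.8 ± 1.95 CPM in ΔNFATC4 cells, against 6.73 ± 0.69 CPM in mock cells (SD, n = 3 and 4; log2 fold change 1.24, adjusted p = 1.03e-07 in edgeR). CRTC3, a coactivator of CREB, fell by 0.22, and these were the 2 called of 17 tested CREB and Epac effectors. The 5 other protein kinase A subunits and inhibitors tested had no call. AKAP7, which anchors the kinase, was the 1 called of 14 anchoring proteins and fell by 0.40. Of 7 other neuronal calcium sensor proteins tested, the relatives of VSNL1, KCNIP2 and NCS1 rose by 0.89 and 0.21 on the log2 scale and 0 fell. MC1R, the melanocortin receptor of pigment cells, rose by 0.51, but its exons are shared with TCF25 and a read-through gene model on the same strand, so its reads are uncertain. Among the 12 adrenocortical markers, 3 rose and 2 fell: HSD3B2 rose by 0.61, CYP21A2 by 0.24 and SCARB1 by 0.22, while MGARP and CYP17A1 fell by 0.67 and 0.45. Exons of MGARP are shared in part with NDUFC1 on the same strand, and those of CYP17A1 and CYP21A2 lie in part opposite WBP1L and TNXB. Of the 13 markers of other cells, 4 were tested and 1 rose: CD68, a macrophage gene, averaged 1.42 ± 0.18 CPM in ΔNFATC4 cells and 0.390 ± 0.14 CPM in mock cells (SD, n = 3 and 4). The defining leukocyte genes PTPRC and CD3E averaged 0.0287 and 0.0318 CPM in ΔNFATC4 cells, and the 13 markers summed to 13.6 to 14.5 CPM in ΔNFATC4 cells and 12.1 to 15.1 CPM in mock cells, with 2 of 13 at 0 in ΔNFATC4 cells and 5 of 13 in mock cells.

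In NFATC4-KO libraries, 0 of the 97 pathway genes tested were called by label. With the number set as a term, where 6.04% of all genes were lower and 4.39% higher, 3 of 11 other phosphodiesterases fell: PDE7B by 0.64, PDE4D by 0.58 and PDE4B by 0.36 on the log2 scale. PDE4B, PDE4D and PDE7B hydrolyze cAMP, and CREM, a cAMP-responsive transcription factor, fell by 0.28 (adjusted p of 0.00874, 0.000257, 0.000133 and 0.00335 in edgeR). In the same fit GNG11 fell by 0.41, having risen in ΔNFATC4 cells, and AKAP7 fell by 0.29, having fallen there too. ADCY1, a calcium-stimulated adenylyl cyclase, rose by 0.58, PRKD1 and CAP2 fell by 0.37 and 0.32, and AKAP8L rose by 0.20, with no further call among the pathway genes. By list, 1 of 16 AngII pathway genes, 1 of 18 other G protein subunits and 1 of 17 CREB and Epac effectors were called. Of 8 adenylyl cyclases and 14 anchoring proteins tested, 1 rose and 1 fell in each list. Over all genes 10.4% were called, and the phosphodiesterases were singled out after their values were seen. Of the 12 adrenocortical markers, 5 fell in this fit, against the same 6.04% of all genes, with CYP17A1 (-0.74), HSD3B2 (-0.44) and STAR (-0.42) ahead of NR5A1 (-0.33) and FDX1 (-0.28); their part in the lower MC2R and VSNL1 was not tested.

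The genes whose levels ran most like a member's were sought over the 15 libraries by Pearson's r of log2 CPM, among genes averaging at least 1 CPM. The points share groups and number sets, so r describes the pattern only. MC2R ran closest to ENPP3 (r = 0.972), an ectonucleotidase gene, and TNC (r = 0.967), a matrix protein gene at 20.7 CPM in ΔNFATC4, 10.2 in mock, 5.09 in NFATC4-KO and 7.34 CPM in control libraries. VSNL1 ran closest to SRPX (0.968) and NETO2 (0.943). AGTR1 was nearest to FDFT1 (0.937), the squalene synthase gene, and STOM (0.932), and PDE8B, at its low counts, to NRG4 (0.830) and COIL (0.820). Among the 10 genes themselves the closest pair was GNAS and VSNL1 (r = 0.894) and the most opposed was MC2R and PRKACB (r = -0.81). Between AGTR1 and MC2R, r over the libraries was -0.0021.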

How the data were processed

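Raw counts per gene were taken as deposited, 1 library per sample. Per the labels and the study's methods, the authors made stranded mRNA libraries, trimmed adaptors with fastp, aligned with STAR to GRCh38.p13 and counted with featureCounts; the strand setting of the counting and the tool versions are not given in the sources used here. Symbols were matched for 21400 of 21493 gene IDs. Positions and exon overlaps were taken from GENCODE, and promoters from RefSeq (GRCh38.p14).

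CPM with TMM factors and all tests were computed with edgeR 4.0.16 in R 4.3.3. Each comparison was fitted on its own 7 or 8 libraries (filterByExpr, robust quasi-likelihood, no block), with Benjamini-Hochberg adjustment over every gene tested. The standard error is the log2 fold change over the square root of F. For each member, log2 of CPM plus 0.5 was permuted exactly between groups (two-sided). Number sets were fitted with the label as a covariate and given no P value. Alternatives were DESeq2 1.42.0 and its size factors, no filter, no robust shrinkage, all 15 libraries in 1 fit, a replicate block, a number-set term and each library left out.

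The members and gene lists were chosen with earlier results of these data known. Text genes are all members, up to 4 called genes of each list by fold change (at least 1 CPM in a group, no overlap), the 2 genes most correlated with AGTR1, MC2R, PDE8B and VSNL1, NFATC4 and CYP11B2; list genes named for the fit with the number set, marker genes and overlapping genes were added after their values were seen. Same-numbered NFATC4-KO and control libraries deviated together (r = 0.74, 0.70 and 0.84 for numbers 1, 2 and 3, from the data and not the labels), but numbers 1 and 2 lie in a different set from 3, so pairing and set cannot be told apart. Deviations of ΔNFATC4 and mock libraries with the same number were unrelated (0.11, -0.10 and 0.03). No libraries of a group agreed within sampling noise.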

Additional observations from a re-analysis of the deposited data

Results flagged for a closer look

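Over 30 groups of 4 libraries (10 genes in mock, NFATC4-KO and control), 3 had a library far from the others by Dixon's criterion for 4 values (0.829), and chance gives about 1 in 20. MRAP was high in control library 4, at 12.0 CPM, against 8.97 CPM in the next library. PRKACB was low in NFATC4-KO library 3, at 64.2 CPM, against 73.5 CPM in the next library. PRKAR2B was high in NFATC4-KO library 5, at 235 CPM, against 222 CPM in the next library. MRAP and PRKAR2B had no call under the labels with or without these libraries, and PRKACB likewise.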

How the results depend on the processing

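MC2R (0.89 to 1.04), AGTR1 (-0.46 to -0.39) and VSNL1 (-0.56 to -0.40) kept their log2 direction and call between ΔNFATC4 and mock cells under all 13 alternatives, with adjusted p of at most 0.0188 in edgeR or DESeq2. GNAS kept its direction and was called in 9 of 13, lost in the fit of all 15 libraries (adjusted p = 0.147) and without each ΔNFATC4 library. The genes called numbered 1944, against 530 in the fit of all 15 libraries, and 1102 to 2560 with a library left out (1269, 1102 and 1253 without ΔNFATC4 library 1, 2 and 3). The 10 genes gave 3 to 6 calls with a library left out. With the replicate block over numbers 1 to 3, without mock library 4, 1980 genes were called and PRKACB passed (-0.22, adjusted p = 0.0463 in edgeR), as it did with no filter (0.0461); PRKACA (0.0027) and PRKAR1A (0.012) changed sign with the block, and with a library left out PRKACA ranged from -0.062 to 0.0023, PRKAR1A from -0.054 to 0.022 and PDE8B from -0.22 to 0.040.

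Between NFATC4-KO and control libraries, calls depended on the model: 0 genes by label, 62 in the fit of all 15 libraries, 155 by DESeq2 (1 of the 10, VSNL1, adjusted p = 0.00874), 139 with the replicate block, without NFATC4-KO library 5 and control library 4, 1446 with the number-set term (3 of the 10), and 0 to 1 with a library left out, of which 1 without NFATC4-KO library 3. No other call was changed by the block. PDE8B changed sign with the block (-0.16). With a library left out, AGTR1 ranged from -0.097 to 0.054, GNAS from -0.079 to 0.018, PDE8B from -0.20 to 0.36, and the members called stayed at 0. The number of members whose number sets did not overlap was 3 to 5, with 5 without control library 1. MC2R rested on 70 to 393 counts and PDE8B on 7 to 33 per library, which limits both.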
